A study of Mus musculus with 12 samples.

Results

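The genes described here were 43 components of Wnt signalling: ligands, secreted modulators, receptors, the cytoplasmic and nuclear core, and known targets. 42 of the 43 had a probe set that the array annotation assigns to that gene alone, out of 12393 genes named on the array, and where a gene had several, the one with the highest average signal on the 12 arrays was read. Tcf7 had no such probe set and was not analysed here. Affymetrix arrays read the RNA of mammary tumours. The female FVB mice had been mated 2 times, and were killed when a tumour reached a maximum diameter of 20 mm. 6 arrays carried RNA of Hunk KO tumours, from mice with the MMTV-c-myc transgene and both copies of Hunk disrupted, and 6 carried RNA of Hunk WT tumours, from mice with the same transgene and intact Hunk. Age was not given. Hunk belongs to the protein kinases related to AMPK. The targeted allele replaces the putative promoter and exon 1 with a LoxP-flanked pGKneo cassette, and it is carried in the germ line, so stromal as well as tumour cells of the Hunk KO mice lack it. The targeting clone was not of FVB origin, and the number of crosses to FVB is not given in the sources used here. The transgene puts c-Myc under the mouse mammary tumour virus promoter, which is active mainly in mammary epithelium. The labels number the arrays within a group without saying that each came from a separate mouse, so each array is called a tumour below and the p-values measure only the spread between these arrays, which may in part be technical.

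Wnt proteins are secreted lipid-modified ligands. They bind Frizzled receptors and the co-receptors Lrp5 and Lrp6, and Dishevelled proteins relay the signal to a complex of Axin, Apc, glycogen synthase kinase 3 and casein kinase 1 that otherwise marks beta-catenin for destruction. Stabilised beta-catenin joins TCF/LEF factors in the nucleus and displaces co-repressors of the Groucho (Tle) family, while CtBP proteins act as further co-repressors. Secreted modulators of the Sfrp, Wif and Dkk families bind the ligands or the co-receptors outside the cell. In the mammary gland, Wnt ligands act in ductal branching and in the upkeep of basal stem cells, and Wnt1 was first found as a site of mouse mammary tumour virus insertion.

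All values are log2 GCRMA signals, on which a difference of 1 is a doubling of the signal. The background of an array was the highest of its 27 Bacillus control probe sets, which match no mouse transcript, and lay between 3.60 and 4.00 in the Hunk KO group and between 3.45 and 3.75 in the Hunk WT group. The Hunk probe set was read as a check of the labels. It gave 2.60, 3.01 and 3.06 (lowest, median, highest) in Hunk KO tumours, all at background, against 2.99, 4.02 and 5.53 in Hunk WT tumours, where 4 of 6 were above background. The log2 change was -1.26 (exact two-sided permutation p = 0.0108; limma with no filter, adjusted p = 0.181). Against the background of the Hunk KO arrays, Hunk was at least 1.41-fold lower in Hunk KO tumours, and with all values raised to background the difference did not pass (exact permutation p = 0.108). Hunk WT tumours 4 and 6 were at background, at 3.32 and 2.99, so the probe set does not check their labels, and whether the probes lie in the deleted part was not checked. The medians of the arrays ranged from 3.87 to 4.10. Hunk KO arrays 4 and 5 were the most similar pair, with an SD of their difference over probe sets of 0.338, against 0.531 for the next pair, and the changes of genes in which they stood out are also given with these arrays averaged as 1 sample. Genes whose mean over all 12 arrays exceeded 3.98 were tested with limma, and a gene was called at a Benjamini-Hochberg adjusted p under 0.05 over all 6825 genes tested.

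Of the 42 genes, 22 passed the expression filter and 20 lay below it. Sfrp2 rose in Hunk KO tumours, Ctbp2 and Sox4 fell, and the other 19 tested genes did not pass the threshold. The 3 calls are 13.6% of the 22 tested genes, and over all 6825 genes 3.34% were called, 113 higher (1.66%) and 115 lower (1.68%) in Hunk KO tumours (68 higher and 126 lower with each array centred on its median). The groups did not overlap in 1 of the 22, Ctbp2, a share of 4.55% where all tested genes gave 3.15%, 1.71% higher and 1.44% lower in Hunk KO tumours. The genes were chosen with earlier results of these data known, so these shares describe the genes and do not test them as a list. An unadjusted p under 0.05 was found for 8 of the 22 genes and for 19.5% of all genes tested, and an adjusted p under 0.1 for 5 of the 22 and for 6.78% of all. In a limma fit of all 12393 genes with no filter, 112 genes (0.904%) were called, and of the 42 Wnt genes 1, Ctbp2. Sfrp2, which had passed the filter through the Hunk KO tumours, lost its call there (adjusted p = 0.0785), as did Sox4. Of the 20 Wnt genes below the filter 0 were called and 0 had an unadjusted p under 0.05. The tumours are bulk tissue, so fewer cells of a type and less RNA per cell cannot be told apart in any of the values below.

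**Figure D1:**
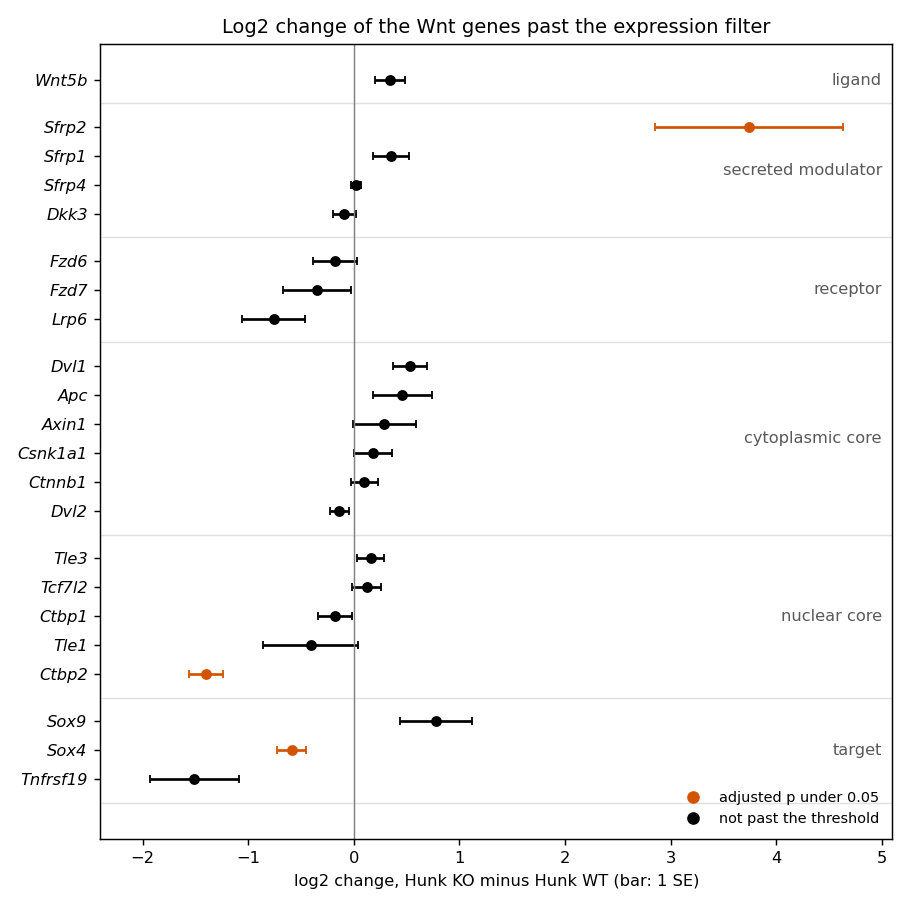
Log2 change (Hunk KO minus Hunk WT, point) with its SE (bar) for the 22 Wnt genes past the expression filter, grouped by role, with the 3 genes called at an adjusted p under 0.05 in orange. Sfrp2 lies at 3.74, Ctbp2 at -1.40 and Sox4 at -0.59, and the other 19 lie between -1.51 and 0.78.

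Of the 6 Wnt ligands, 3 gave no signal above background on any array. Of the 6 ligands and Porcn, the acyltransferase that attaches their lipid, only Wnt5b, which can signal without beta-catenin, passed the filter. Wnt4, Wnt6, Wnt10a and Porcn were at background on all 12 arrays. Wnt5a was above background on 2 of 6 Hunk KO and 1 of 6 Hunk WT arrays, and Wnt7b on 0 of 6 Hunk KO and 1 of 6 Hunk WT arrays. A probe set at background gives no level, and it does not show that the transcript was absent.

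Wnt5b had 4.52, 4.67 and 5.37 (lowest, median, highest) in Hunk KO tumours, against 4.39, 4.44 and 4.66 in Hunk WT tumours. The groups overlapped, and the highest values came from Hunk KO arrays 4 and 5, at 5.37 and 5.12. Its log2 change of 0.34 (SE 0.14) did not pass the threshold (adjusted p = 0.224), and with Hunk KO tumours 4 and 5 averaged it was 0.25 (adjusted p = 0.340). The other Wnt5b probe set differed by 0.30 in the same direction.

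Among the secreted modulators, Sfrp2 was higher in Hunk KO tumours. Sfrp2 is a secreted Frizzled-related protein that binds Wnt ligands through a Frizzled-like domain and is made by stromal as well as epithelial cells in several tissues. It had 5.05, 7.70 and 9.26 (lowest, median, highest) in Hunk KO tumours, against 2.75, 3.12 and 7.06 in Hunk WT tumours. All 6 Hunk KO tumours were above background and 5 of 6 Hunk WT tumours were at it. Hunk WT tumour 3, at 7.06, lay inside the Hunk KO range, and Hunk KO tumours 4 and 5, at 5.05 and 5.78, were the lowest of their group.

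Sfrp2 averaged 7.45 ± 1.74 in Hunk KO tumours and 3.71 ± 1.67 in Hunk WT tumours (SD, n = 6 each; log2 change 3.74, SE 0.89, adjusted p = 0.0424). Against the Hunk WT group with values raised to array background, Sfrp2 was at least 9.66-fold higher in Hunk KO tumours. Its Hunk WT mean lay below the expression filter, which Sfrp2 passed through the Hunk KO tumours, and with no filter the call was lost (adjusted p = 0.0785). Of 26 alternative fits 8 called it. It held in 3 of 12 fits with 1 array left out, those without Hunk KO tumour 4 or 5 or Hunk WT tumour 3, and the adjusted p without Hunk WT tumour 3 was 0.0105, while without Hunk WT tumour 4 it was 0.0950. In the fit to values raised to array background the change was 3.27 (adjusted p = 0.0515), and with Hunk KO tumours 4 and 5 averaged it was 4.15 (adjusted p = 0.0418).

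The other secreted modulators did not pass. Sfrp1, a further secreted Frizzled-related protein, had 5.36, 5.66 and 6.33 in Hunk KO tumours, against 5.31, 5.39 and 5.57 in Hunk WT tumours (log2 change 0.35, SE 0.17, adjusted p = 0.285). Its values were uneven, with Hunk KO tumours 3, 4 and 6 above every Hunk WT tumour, and its probe sets disagreed. A second Sfrp1 probe set, above background on all 12 arrays, differed by -0.41 (exact permutation p = 0.00866, not adjusted), so that no direction is given for Sfrp1. Sfrp4 (0.02) and Dkk3 (-0.09), a divergent Dickkopf family member, had adjusted p of 0.798 and 0.676. Sfrp4 lay between 4.19 and 4.33 on all 12 arrays, near background, where a change would be understated. Wif1, which binds Wnt ligands directly, averaged 3.85 ± 0.17 in Hunk KO tumours and 3.78 ± 0.21 in Hunk WT tumours (SD, n = 6 each), and Frzb and Dkk2 were at background on all 12 arrays.

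Sfrp2 is also a gene of fibroblasts, and markers of that cell type were read beside it. Of 20 fibroblast and matrix markers, 13 passed the filter, 12 of these had a positive log2 change and 0 passed the threshold in limma, while 6 higher and 1 lower had an unadjusted p under 0.05. The summed signal of the 20 markers lay between 11.81 and 13.13 (log2) in Hunk KO tumours. In Hunk WT tumours it lay between 11.53 and 12.48 (exact permutation p = 0.0519). For the mean of the 13 markers the exact permutation p was 0.139. Col3a1, the brightest, was at 10.36 ± 0.56 in Hunk KO tumours and 9.41 ± 0.39 in Hunk WT tumours (SD, n = 6 each). The fibroblast markers Dcn, Lum, Pdgfra, Fap, Thy1 and Dpt were at background on all 12 arrays. Within the Hunk KO group Sfrp2 and the mean of the 13 markers had a Pearson r of -0.60 (exact permutation p = 0.194) and a Spearman rho of -0.49 (exact permutation p = 0.356, n = 6), and within the Hunk WT group an r of 0.49 (exact permutation p = 0.286) and a rho of 0.37 (exact permutation p = 0.497, n = 6). Without the 2 tumours farthest from the median of the markers, r was -0.79 in the Hunk KO group and 0.35 in the Hunk WT group. Hunk KO tumours 4 and 5, the pair of similar arrays, counted as 2 points in both Hunk KO values. They had high marker means, 8.43 and 8.31, and the lowest Sfrp2 of their group, so the negative r leans on them. No r was computed with them averaged. None of the 8 relations computed for Sfrp1, Sfrp2, Sfrp4 and Dkk3 passed after Benjamini-Hochberg adjustment (lowest adjusted p = 0.222, exact permutation). With the marker mean as a covariate in limma the log2 change of Sfrp2 was 4.00 (adjusted p = 0.0777).

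Of the 3 receptors tested, 0 passed the threshold in limma and 1, Lrp6, had an unadjusted p under 0.05. Fzd6, Fzd7 and the co-receptor Lrp6 were above background on all 12 arrays. Lrp6 had 5.67, 6.27 and 6.91 in Hunk KO tumours, against 6.33, 6.88 and 7.90 in Hunk WT tumours, and the groups overlapped (log2 change -0.76, SE 0.30, adjusted p = 0.190). The other Lrp6 probe set, at 5.01 ± 0.30 in Hunk KO tumours and 5.66 ± 0.35 in Hunk WT tumours (SD, n = 6 each), differed by -0.65 (exact permutation p = 0.00433, not adjusted).

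Fzd7, a Frizzled receptor of basal mammary cells, was the brightest receptor. It had 6.17, 7.16 and 8.24 in Hunk KO tumours, against 7.33, 7.63 and 7.80 in Hunk WT tumours (log2 change -0.35, SE 0.32, adjusted p = 0.562). Hunk KO tumours 4 and 5, at 8.24 and 8.16, were above every Hunk WT tumour, and Hunk KO tumours 1, 2 and 3 were below every one. With Hunk KO tumours 4 and 5 averaged the change of Fzd7 was -0.53 (adjusted p = 0.378). Fzd6 changed by -0.18 (adjusted p = 0.657). Fzd1, Fzd5, Fzd8 and Lrp5 were at background on all 12 arrays, Fzd2 was above it only on Hunk WT array 5, and Fzd4 was above it on 6 of 6 Hunk KO and 4 of 6 Hunk WT arrays with a range of 3.61 to 4.17 in Hunk KO tumours and 3.55 to 3.73 in Hunk WT tumours.

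In the cytoplasmic core, 6 of 7 genes passed the filter, 5 with a positive and 1 with a negative log2 change (Axin1 positive through 1 tumour), and 0 passed the threshold in limma, with 1, Dvl1, at an unadjusted p under 0.05. Dvl1, which carries the signal from the receptor, had 9.16, 9.58 and 9.75 in Hunk KO tumours, against 8.59, 9.12 and 9.38 in Hunk WT tumours. 5 of 6 Hunk KO tumours lay above the highest Hunk WT tumour. Its log2 change of 0.53 (SE 0.16) had an adjusted p of 0.0996, and the second Dvl1 probe set differed by 0.56. Ctnnb1, the gene of beta-catenin and the brightest of the 42, averaged 11.55 ± 0.25 in Hunk KO tumours and 11.45 ± 0.20 in Hunk WT tumours (SD, n = 6 each; log2 change 0.10, adjusted p = 0.702). The array reads the transcript, whereas beta-catenin signalling is set mainly by the stability of the protein, which was not measured.

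The genes of the destruction complex did not pass either. Apc, its scaffold and a tumour suppressor, had 5.76, 6.28 and 7.23 in Hunk KO tumours, against 5.31, 5.94 and 6.55 in Hunk WT tumours (log2 change 0.46, SE 0.28, adjusted p = 0.372). Csnk1a1, the kinase that primes beta-catenin, changed by 0.18 (adjusted p = 0.581) at the probe set used, while another of its probe sets differed by 0.57 (exact permutation p = 0.0216, not adjusted). Axin1 changed by 0.29 (adjusted p = 0.609), with Hunk KO tumour 1 at 7.42 and all others between 5.34 and 5.70, and without that tumour the change was -0.03 (adjusted p = 0.898). Gsk3b was at background on all 12 arrays and Dvl2 lay between 4.08 and 4.32 in Hunk KO tumours and between 4.23 and 4.70 in Hunk WT tumours.

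Among the nuclear factors, Ctbp2 was lower in Hunk KO tumours. Ctbp2 encodes C-terminal binding protein 2, a co-repressor that binds NADH and is recruited by many DNA-binding repressors, not only by those of the Wnt pathway. It had 7.53, 7.95 and 8.14 in Hunk KO tumours, against 9.01, 9.24 and 9.91 in Hunk WT tumours. Every Hunk KO tumour was lower than every Hunk WT tumour.

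Ctbp2 averaged 7.90 ± 0.24 in Hunk KO tumours and 9.30 ± 0.31 in Hunk WT tumours (SD, n = 6 each), which is 37.9% of the Hunk WT signal (log2 change -1.40, SE 0.16, adjusted p = 0.00146). A second Ctbp2 probe set, at 7.28 ± 0.69 in Hunk KO tumours and 9.13 ± 0.63 in Hunk WT tumours (SD, n = 6 each), differed by -1.85, and its groups did not overlap either. The Ctbp2 call held in all 12 fits with 1 array left out, with adjusted p between 0.00124 and 0.00494, and with Hunk KO tumours 4 and 5 averaged (adjusted p = 0.00379). Among 27 alternative fits it was lost in 1, that with the mean of the luminal markers as a covariate, where the change was -1.17 (adjusted p = 0.226).

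The related co-repressor Ctbp1 changed by -0.18 (SE 0.16, adjusted p = 0.532), with 7.81 to 8.71 in Hunk KO tumours and 8.11 to 8.68 in Hunk WT tumours. Whether the changes of Ctbp2 and Ctbp1 differ was not tested. Tle1, a Groucho co-repressor, had 5.03, 5.93 and 6.76 in Hunk KO tumours, against 5.18, 5.98 and 7.84 in Hunk WT tumours (log2 change -0.41, SE 0.45, adjusted p = 0.631). Tle3 (0.16) and the DNA-binding factor Tcf7l2 (0.12) had adjusted p of 0.511 and 0.659. Lef1 was at background on all 12 arrays and Tle2 on all but Hunk WT array 1.

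Of the targets, Sox4 was lower in Hunk KO tumours. Sox4 is an HMG-box transcription factor of progenitor cells, often raised in carcinomas, that can act with TCF factors and beta-catenin. It had 10.01, 10.37 and 10.78 in Hunk KO tumours, against 10.75, 10.96 and 11.22 in Hunk WT tumours. Hunk KO tumour 6, at 10.78, was level with Hunk WT tumour 6, at 10.75, and the other 5 Hunk KO tumours lay below every Hunk WT tumour.

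Sox4 averaged 10.37 ± 0.32 in Hunk KO tumours and 10.96 ± 0.15 in Hunk WT tumours (SD, n = 6 each), 66.5% of the Hunk WT signal (log2 change -0.59, SE 0.14, adjusted p = 0.0470). The call was close to the threshold, and 6 of 27 alternative fits made it. It was lost with no filter (adjusted p = 0.0813), after quantile normalization (0.0585) and with the mean of all probe sets (0.110). It held in 1 of 12 fits with 1 array left out, that without Hunk KO tumour 6 (adjusted p = 0.0341), and with Hunk KO tumours 4 and 5 averaged the adjusted p was 0.0617. Of the 5 other Sox4 probe sets, 3 differed by -0.49 to -0.70, 1 by -0.04, and the dimmest, at background on all 12 arrays, by -0.08.

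Tnfrsf19, a TNF receptor family member known as Troy and a Wnt target of intestinal stem cells, had the largest fall in size among the 22 genes but did not pass the threshold. It had 4.20, 4.85 and 5.16 in Hunk KO tumours, against 4.96, 6.23 and 7.91 in Hunk WT tumours. 5 of 6 Hunk WT tumours lay above the highest Hunk KO tumour, and the spread was wider in the Hunk WT group. Its log2 change was -1.51 (SE 0.42, adjusted p = 0.0682), and in the fit without Hunk WT tumour 6 it passed (adjusted p = 0.0345). The other Tnfrsf19 probe sets, at background on all but 1 Hunk WT array each, differed by -0.10 and -0.20.

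Sox9, an HMG-box factor of mammary progenitors, had 5.68, 6.62 and 7.88 in Hunk KO tumours, against 5.80, 5.92 and 6.06 in Hunk WT tumours (log2 change 0.78, SE 0.34, adjusted p = 0.228). Hunk KO tumours 4, 5 and 1, at 7.88, 7.42 and 7.05, stood well above all Hunk WT tumours and Hunk KO tumour 3, at 6.20, just above them, while Hunk KO tumours 2 and 6 lay within or below their range. With Hunk KO tumours 4 and 5 averaged the change of Sox9 was 0.59 (adjusted p = 0.351). Nkd1, a feedback inhibitor that binds Dishevelled, averaged 3.99 ± 0.18 in Hunk KO tumours and 3.85 ± 0.14 in Hunk WT tumours (SD, n = 6 each). Axin2, the target most often read as a sign of beta-catenin signalling, was at background at both of its probe sets on all 12 arrays and so gave no reading in either group.

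**Figure D2:**
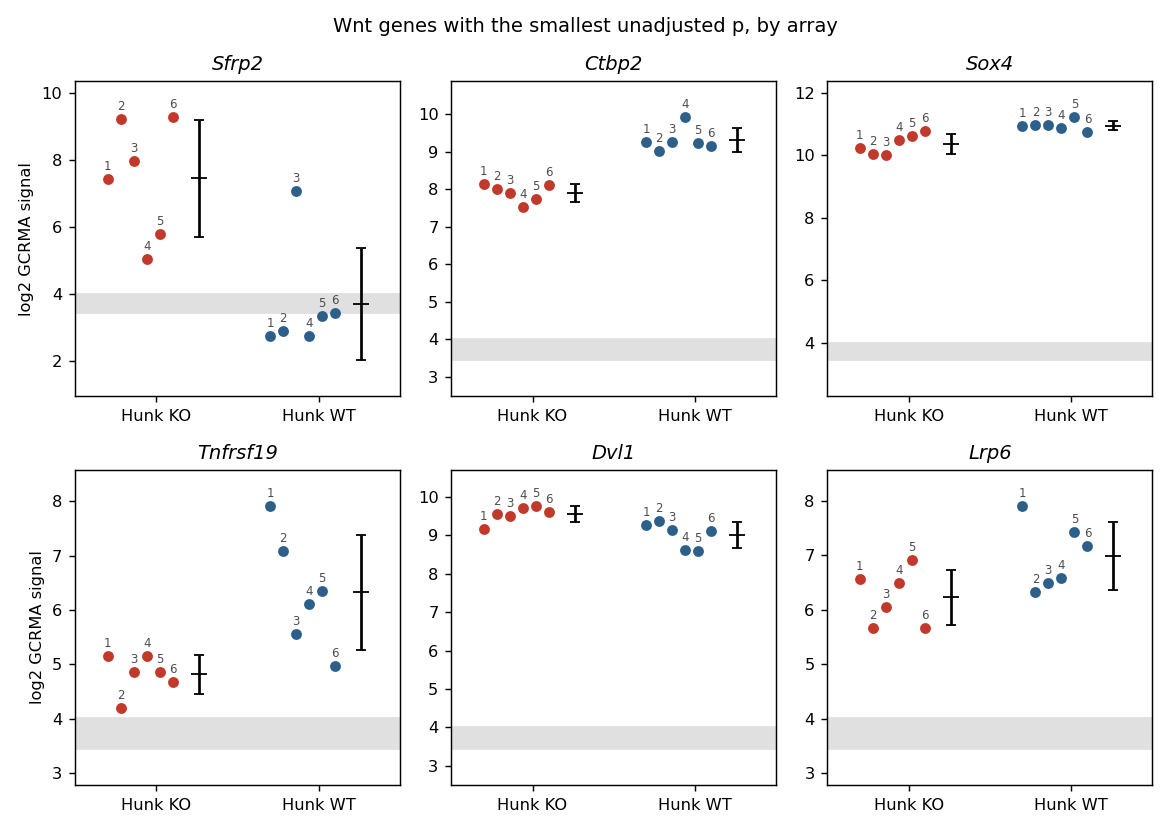
Log2 GCRMA signal of 6 Wnt genes on each array (points, numbered by array; Hunk KO left, Hunk WT right) with the mean and SD beside each group, and the range of array backgrounds in grey. The Ctbp2 groups do not overlap, Hunk WT tumour 3 lies inside the Hunk KO range of Sfrp2, and Hunk KO tumour 6 lies level with the lowest Hunk WT tumour for Sox4.

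**Figure D3:**
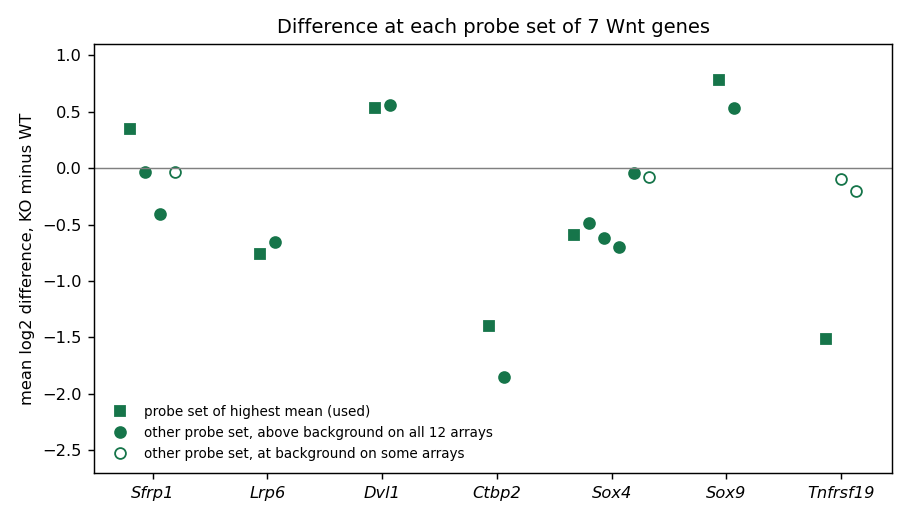
Mean log2 difference (Hunk KO minus Hunk WT) at every probe set of 7 Wnt genes, with the probe set used as a square and others as circles, open where the signal was at background on some arrays. The Ctbp2 probe sets lie at -1.40 and -1.85, 4 Sox4 probe sets lie between -0.49 and -0.70, and the Sfrp1 probe sets lie on both sides of 0.

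The 300-base windows below span 250 bases before to 50 after the annotated starts of Sfrp2, Ctbp2, Sox4 and Tnfrsf19. These are the 3 called genes and the gene with the largest fall in size. Whether the tumours use these starts was not tested, so the windows need not be the promoters in use. Sequences are those of RefSeq on the GRCm38.p6 build, which had windows for 26 of the 42 genes, and are written 5′ to 3′ on the gene's strand. Capitals mark matches, on either strand, to 4 motifs. The TCF/LEF motif was spelled CTTTGAA, its other spellings being CTTTGAT, otherwise CTTTGTA, otherwise CTTTGTT. The E-box was spelled CACGTG, the GC box was spelled GGGCGG, and the TATA box was spelled TATAAA.
Sfrp2, chr3:83766071-83766370, plus strand: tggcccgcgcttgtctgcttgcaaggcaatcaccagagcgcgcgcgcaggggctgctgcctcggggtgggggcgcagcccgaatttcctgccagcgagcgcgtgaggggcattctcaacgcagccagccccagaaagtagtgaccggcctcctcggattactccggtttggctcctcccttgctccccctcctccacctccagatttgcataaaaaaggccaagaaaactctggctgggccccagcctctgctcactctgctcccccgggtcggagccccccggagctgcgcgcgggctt
Ctbp2, chr7:133081811-133082110, minus strand: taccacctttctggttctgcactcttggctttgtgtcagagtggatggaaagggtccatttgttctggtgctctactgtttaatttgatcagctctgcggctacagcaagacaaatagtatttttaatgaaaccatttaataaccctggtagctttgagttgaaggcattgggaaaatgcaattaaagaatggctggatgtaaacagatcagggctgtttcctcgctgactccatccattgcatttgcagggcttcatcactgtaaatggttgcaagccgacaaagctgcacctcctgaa
Ctbp2, chr7:133015198-133015497, minus strand: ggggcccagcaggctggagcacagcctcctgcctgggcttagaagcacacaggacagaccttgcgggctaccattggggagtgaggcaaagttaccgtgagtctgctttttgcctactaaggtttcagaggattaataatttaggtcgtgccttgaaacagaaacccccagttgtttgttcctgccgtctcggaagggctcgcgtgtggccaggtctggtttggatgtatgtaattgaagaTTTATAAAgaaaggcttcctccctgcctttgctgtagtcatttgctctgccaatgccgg
Sox4, chr13:28953650-28953949, minus strand: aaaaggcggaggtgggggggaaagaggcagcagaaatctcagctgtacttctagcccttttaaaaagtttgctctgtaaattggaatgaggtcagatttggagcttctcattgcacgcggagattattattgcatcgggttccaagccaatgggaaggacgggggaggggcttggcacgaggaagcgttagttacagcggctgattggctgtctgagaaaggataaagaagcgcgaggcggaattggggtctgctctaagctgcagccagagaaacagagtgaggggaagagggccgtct
Tnfrsf19, chr14:61046806-61047105, minus strand: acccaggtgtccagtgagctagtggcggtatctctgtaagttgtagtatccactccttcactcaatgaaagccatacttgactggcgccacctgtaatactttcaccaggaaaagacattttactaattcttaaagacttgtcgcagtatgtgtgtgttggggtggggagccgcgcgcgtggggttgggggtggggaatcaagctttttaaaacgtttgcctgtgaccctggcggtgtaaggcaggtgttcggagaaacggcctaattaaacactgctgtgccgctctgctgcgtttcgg
Tnfrsf19, chr14:61037938-61038237, minus strand: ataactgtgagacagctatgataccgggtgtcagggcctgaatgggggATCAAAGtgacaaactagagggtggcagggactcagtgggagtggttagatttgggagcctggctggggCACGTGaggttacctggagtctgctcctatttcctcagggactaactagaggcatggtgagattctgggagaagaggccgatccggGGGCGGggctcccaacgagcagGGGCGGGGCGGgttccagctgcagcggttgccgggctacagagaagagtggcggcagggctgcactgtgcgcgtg

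The windows of Sfrp2 and Sox4, the first of Ctbp2 and the first of Tnfrsf19 held none of these letters. The second Ctbp2 window held TATAAA on both strands, the matches overlapping in 4 bases, and the second Tnfrsf19 window held 1 TCF/LEF motif, 1 E-box and 3 GC boxes, of which the last 2 overlap by 1 base. Of 32544 windows of the same length, 16.9% held a TCF/LEF motif, 7.17% an E-box, 35.9% a GC box and 13.6% a TATA box. The GC content was 66.0% for Sfrp2 and 52.0% for Sox4, against a median of 53.0% over all windows. A match is a description of these letters only.

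Secreted modulators were set against the pathway core and targets. The 4 tested secreted modulators had a median log2 change of 0.19, and the 14 tested genes of the cytoplasmic core, nuclear core and targets a median of 0.11, beside 0.006 over all genes tested. Over all 7 and 19 such genes on the array, with no expression filter, the medians were 0.06 and 0.10, beside 0.036 over all 12393 genes. The median of 0.19 lies between Sfrp4 (0.02) and Sfrp1 (0.35). Sfrp4 lay near background, and the probe sets of Sfrp1 disagreed. With the mean of all probe sets of a gene, Sfrp1 changed by -0.03, and the median of the 3 modulators left to test was 0.0247. Of the 4 secreted modulators 1 rose and 0 fell, and of the 14 others 0 rose and 2 fell, where 1.66% of all genes tested rose and 1.68% fell. The 1 that rose, Sfrp2, passed the filter through the Hunk KO tumours and was not called by limma with no filter (adjusted p = 0.0785). The counts therefore do not set the 2 classes apart. The modulators ranged from -0.09 to 3.74 and the others from -1.51 to 0.78, so that the upper end of the first set was Sfrp2 alone.

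Several Wnt genes varied more among Hunk KO tumours than among Hunk WT tumours, and others varied less. This was seen after the values were examined and is a description. The SD in the Hunk KO group was over 3 times that in the Hunk WT group for Sox9 (6.46 times), Axin1 (5.29), Fzd7 (4.58), Sfrp1 (4.43), Dkk3 (3.69) and Wnt5b (3.48), 6 of the 22 genes, while 6.71% of all genes tested had such a ratio. With Hunk KO tumours 4 and 5 averaged the ratio was over 3 for 5 of the 22 genes and 6.80% of all, Wnt5b lying just under it, and without Hunk KO tumour 1 it was over 3 for 5 of the 22 and 6.15% of all, with Axin1 at 1.11. Both settings were chosen after seeing the data. The median SD ratio was 1.06 over the 22 genes and 1.12 over all genes tested. The SD was larger in the Hunk KO group for 12 of the 22 genes and in the Hunk WT group for 10. The Hunk WT SDs of the 6 genes named above were small, from 0.07 (Dkk3) to 0.18 (Fzd7). A ratio over so small an SD can be high without a wide spread among Hunk KO tumours, as for Dkk3 (SD 0.25). Part of this may come from the compression of low signals by GCRMA, which was not tested. Hunk KO tumours 4 and 5, the pair of similar arrays, had the highest values of Fzd7 and Wnt5b and Sox9, and the lowest values of Sfrp2 in their group. Hunk KO tumours 1, 4 and 5, the highest for Sox9, had the milk gene Csn2 at 2.24 to 2.30, and Hunk KO tumours 2, 3 and 6 at 13.67 to 14.22. Fzd7 and Wnt5b did not follow that split, with Hunk KO tumour 1 at 6.62 and 4.52. Sfrp2 was at 9.21, 7.97 and 9.26 in Hunk KO tumours 2, 3 and 6. In Hunk KO tumours 1, 4 and 5 it was lower, at 7.43, 5.05 and 5.78. Csn2 was also high in Hunk WT tumours 2 and 3, at 12.85 and 12.48, where Sfrp2 was 2.90 and 7.06. A relation of Sox9 or Sfrp2 to the milk genes was not tested.

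**Figure D4:**
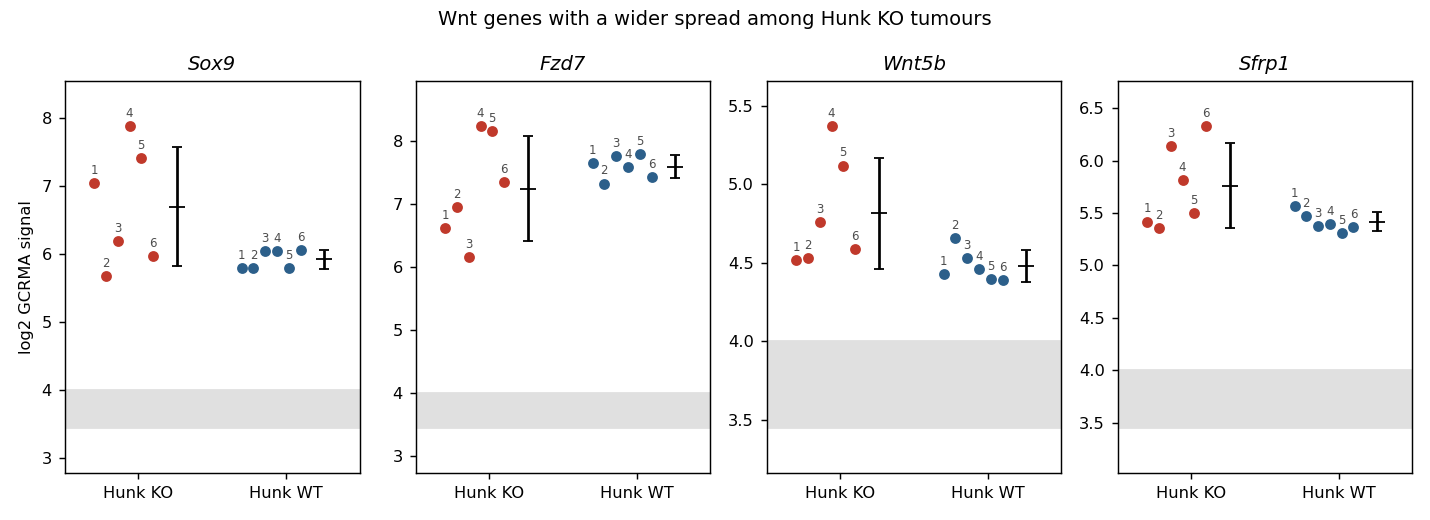
Log2 GCRMA signal of Sox9, Fzd7, Wnt5b and Sfrp1 on each array (points, numbered by array; Hunk KO left, Hunk WT right) with mean and SD beside each group and the range of array backgrounds in grey. Hunk KO tumours 4 and 5 are high for Sox9, Fzd7 and Wnt5b, and the Hunk WT points lie close together in all 4 panels.

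Other genes of the pathway were read from a list of 69, of which 58 had a probe set and 26 passed the filter. By limma, 0 of the 26 rose and 0 fell, 12 had a positive and 14 a negative log2 change, and the median was -0.01. At an unadjusted p under 0.05, 4 were lower and 0 higher, 15.4% of the 26 where 19.5% of all genes tested had such a p. The 4, named after their values were seen, were Fzd9, a Frizzled receptor (log2 change -1.16, adjusted p = 0.0596), the kinase Csnk1e (-1.01, adjusted p = 0.149), the Wnt co-receptor Ryk (-0.38, adjusted p = 0.140) and the cell cycle gene Ccnd1, a Wnt target (-1.23, adjusted p = 0.150). Fzd9 had 4.80, 5.01 and 5.63 in Hunk KO tumours, against 5.21, 6.13 and 7.34 in Hunk WT tumours. 27 of the 58 were at background on all 12 arrays, among them the mammary ligands Wnt2, Wnt10b and Wnt11, the stem cell receptor Lgr5 and the agonist Rspo1.

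Markers of other cell types and a sign of RNA quality moved with the groups to differing degrees, and beyond the covariates named here their part in the changes of Sfrp2, Ctbp2 and Sox4 was not tested. The mean of 7 luminal markers that passed the filter, of 11 on the array, was 9.94 to 10.23 in Hunk KO tumours and 9.02 to 9.90 in Hunk WT tumours, with no overlap (exact permutation p = 0.00216, the smallest that 6 against 6 can give). The summed signal of the 11, 13.85 to 14.42 in Hunk KO tumours and 13.44 to 14.12 in Hunk WT tumours, overlapped (exact permutation p = 0.106). Krt18, the brightest, averaged 12.02 ± 0.63 in Hunk KO tumours and 12.19 ± 0.67 in Hunk WT tumours (SD, n = 6 each). The list went both ways, with 4 positive and 3 negative log2 changes. In limma Krt19 (log2 change 4.08, adjusted p = 0.0424) and Cd24a (0.87, adjusted p = 0.0244) rose and 0 fell. Krt19 had the largest change in size of the 7, and so the largest part in the group difference of their mean. At an unadjusted p under 0.05, 3 were higher and 1 lower. The lower one, Kit, averaged 6.37 ± 2.26 in Hunk KO tumours and 9.32 ± 0.66 in Hunk WT tumours (SD, n = 6 each; log2 change -2.95, adjusted p = 0.0876), and Epcam, with a log2 change of -0.19, did not pass either. Esr1, Pgr and Foxa1 were at background on all 12 arrays. With this mean, which does not overlap between the groups, as a covariate, limma called 1 gene of 6825, Cbr2 (named after its value was seen), with 500 genes at an unadjusted p under 0.05. In that fit Sfrp2 changed by 1.64 (adjusted p = 0.884), Ctbp2 by -1.17 (adjusted p = 0.226) and Sox4 by -0.49 (adjusted p = 0.723).

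The summed signal of the 10 basal markers, led by Acta2, was 9.51 to 10.69 in Hunk KO tumours and 9.09 to 10.61 in Hunk WT tumours (exact permutation p = 0.227), and that of the 7 adipocyte markers on the array, led by Fabp4, was 7.37 to 11.63 in Hunk KO tumours and 6.29 to 8.51 in Hunk WT tumours (exact permutation p = 0.0260), with Cidec, Lep, Pparg and Retn at background on all 12 arrays. The milk genes, led by Csn3, ranged from 11.23 to 15.92 in Hunk KO tumours and from 11.33 to 14.88 in Hunk WT tumours, and the macrophage and leukocyte genes, led by Lyz2, from 10.33 to 11.67 in Hunk KO tumours and from 10.80 to 11.64 in Hunk WT tumours. Endothelial genes, led by Eng, ranged from 6.48 to 6.71 in Hunk KO tumours and from 6.35 to 6.61 in Hunk WT tumours, with Pecam1, Cdh5, Kdr and Tie1 at background on all 12 arrays. Skeletal muscle genes, led by Acta1, ranged from 5.65 to 12.55 in Hunk KO tumours and from 5.58 to 8.65 in Hunk WT tumours. In limma 2 of the 8 tested milk genes rose, where 1.66% of all genes tested did. They were Elf5 (log2 change 2.12, adjusted p = 0.0490) and Ltf (5.04, adjusted p = 0.0427). The other 6, the caseins, Wap and Glycam1, did not pass, and Csn3 changed by -2.25 (adjusted p = 0.419). Of the 7 basal, 2 adipocyte, 2 endothelial, 8 macrophage and leukocyte and 1 muscle genes tested 0 passed the threshold, with 1, 2, 0, 3 and 0 of them at an unadjusted p under 0.05. As a sign of RNA quality, the beta-actin control signal at the 3' end minus that at the 5' end was 1.51 ± 0.15 in Hunk KO tumours and 1.29 ± 0.05 in Hunk WT tumours (SD, n = 6 each; exact permutation p = 0.0108). With that difference as a covariate, Ctbp2 changed by -1.17 (adjusted p = 0.0428), Sfrp2 changed by 3.54 (adjusted p = 0.223) and Sox4 by -0.56 (adjusted p = 0.230).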

How the data were processed

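The arrays were hybridised with biotin-labelled cRNA of Trizol-extracted total RNA, per the labels' protocols. The authors deposited log2 signals of 22690 probe sets on 12 arrays, between -0.07 and 14.72, and GCRMA is the only tool in the submitters' processing notes. GCRMA compresses low signals toward a floor, so changes near background are understated. Values were used as deposited.

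Platform symbols were updated through gene identifiers to RefSeq names (GRCm38.p6). Of the probe sets, 20380 had 1 symbol, 691 several, 1555 none and 64 were controls. Each gene was its probe set of highest mean, tested with limma 3.58.1 (lmFit, eBayes with trend) in R 4.3.3, group as the only term, where that mean exceeded the median of probe-set means (3.98). Scan dates were not given in the sources used here, so no batch was tested. The number of arrays limits the precision. Permutation tests were exact and two-sided (smallest p 0.00216). The fit was tested on simulated data. Alternatives changed filter, variance model, scaling, offset, floor, gene summary, threshold, covariates, replicate block and arrays.

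The 43 genes and all lists were chosen with earlier results of these data known. The rule for named genes took genes past the threshold or without overlap, and in each role the 2 largest changes and the brightest gene, with Hunk and the brightest marker of each list; names outside it were chosen after their values were seen.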

Additional observations from a re-analysis of the deposited data

Results flagged for a closer look

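A tumour was marked where its gap to the nearest of the other 5 of its group, divided by the range of the group, exceeded Dixon's critical value at the 95% level. Of 86 groups looked at, 11 were marked, and chance marks about 1 in 20, or 4.3 of 86. Of the 11 values, 8 were above array background. Hunk WT tumour 3 had an Sfrp2 level of 7.06, while the other Hunk WT tumours lay between 2.75 and 3.45. Hunk WT tumour 4 had the highest Ctbp2 level, 9.91, while the others lay between 9.01 and 9.26, so that the mark lies away from the Hunk KO range. Hunk KO tumour 1 had an Axin1 level of 7.42, with the others between 5.34 and 5.68. Hunk WT tumour 1 was alone in giving a Tle2 signal, 5.19, with the others between 2.67 and 2.77, and its Gsk3b value of 2.81 was below the others at 3.35 to 3.50, all at background. Hunk WT tumour 5 gave the highest Fzd2 value, 3.55, and the highest Wnt7b value, 3.65, both just above its background. Hunk KO tumour 6 was lowest for Dvl2, at 4.08, and Hunk KO tumour 3 highest for Nkd1, at 4.35. Hunk WT tumour 2 for Fzd1, at 2.95, and Hunk KO tumour 4 for Hunk, at 2.60, were below background.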

How the results depend on the processing

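The count of called Wnt genes, 3 (Ctbp2, Sfrp2 and Sox4), was 1, Ctbp2, with no expression filter, with an offset of 16 before log2, with the replicate block and with the beta-actin or fibroblast covariate, 0 with the luminal covariate, 5 at an adjusted p under 0.1 (Dvl1 and Tnfrsf19 added), and 1 to 2 with 1 array left out. Among the other pathway genes the count of 0 was 1, Fzd9, with the fibroblast covariate and at an adjusted p under 0.1, and 0 to 1 with 1 array left out. Over all genes the 228 calls were 112 with no filter, 390 with array weights, 69 with the replicate block, 125 with Hunk KO arrays 4 and 5 averaged, 72, 123 and 1 with the beta-actin, fibroblast and luminal covariates, 463 at an adjusted p under 0.1, and 95 to 212 with 1 array left out. Correlations of same-numbered deviations lay between -0.02 and 0.14, over 0.1 in 2 of 6, while 3 of 6 Hunk KO arrays were closest to their own number. These values do not settle whether replicate numbers pair the arrays. The median change of core and targets, 0.11, was -0.0421 with the luminal covariate. That of secreted modulators, 0.19, ranged from 0.0247 (mean of all probe sets) to 0.227 (without Hunk KO tumour 2). It was 0.0441 with the beta-actin and 0.0707 with the luminal covariate. The spread between tumours, an SD of 0.209, exceeds this median, so staying within it does not show that the median was stable. None of the 4 modulators was left to test at the 75th percentile. Hunk had a difference of -0.64 (exact permutation p = 0.108) with values raised to background. In 628 single-gene comparisons for 23 genes, 0 called values changed sign, 40 lost and 7 gained a call, and 15 uncalled values changed sign; the cause was not tested. Levels below the filter limit 20 of the 42 genes, and Sfrp4, just past it, also lay near background.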
